A study of Mus musculus with 4 samples.

Results

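The respiratory chain genes described here are the 107 genes, of 32285 measured, whose symbols name a subunit of the 5 complexes of oxidative phosphorylation or an Ndufaf assembly factor of complex I. The rule uses gene symbols alone. Of these, 13 are encoded in the mitochondrial genome, and 94 are nuclear. The nuclear genes comprise 39 complex I subunits, 8 complex I assembly factors, 4 complex II subunits, 8 complex III subunits, 18 complex IV subunits and isoforms, and 17 complex V subunits. The mitochondrial genes comprise 7 subunits of complex I, 1 of complex III, 3 of complex IV and 2 of complex V.

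The values come from single-cell RNA profiles of 4 mouse prostate tumours, 1 tumour and 1 mouse per library. The 2 PCSp mice carry PB-Cre with floxed Chd1 (Chd1L/L), the mutant SpopF133V allele and the mTmG reporter. The 2 PSp mice carry PB-Cre, SpopF133V and mTmG without the floxed Chd1. PB-Cre is a Cre driven by the probasin promoter, which is active in prostate epithelium, so stromal and immune cells of PCSp tumours are not targets of the recombination. All mice had been castrated at 9 months of age, and the tumours were taken 1 month later and dissociated whole, so the mice compared differ in the floxed Chd1 and share the castration and the other alleles named.

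The respiratory chain passes electrons from NADH (complex I) and succinate (complex II) through complex III to complex IV, which reduces oxygen, and complex V uses the resulting proton gradient to make ATP. Complexes I, III, IV and V are built from subunits of both genomes, while complex II is wholly nuclear. The mitochondrial genes are transcribed as long polycistronic precursors and released by processing, so their transcript levels are set by a different machinery from that of the nuclear genes. Several complex IV subunits exist as isoforms of separate genes with tissue-restricted expression.

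The 4 libraries held 9656 and 9600 barcodes in PCSp mice and 6539 and 7266 in PSp mice, with 66874620 to 90839725 unique molecular identifiers (UMIs, each counting 1 captured transcript) in total. PCSp mouse 2 had the lowest median depth, 2289 UMIs per barcode, against 3448.5 in PCSp mouse 1 and 3606 and 3757 in PSp mice. Between 43 and 65 barcodes of a library were also present in another. After filters, 26702 cells fell into 29 clusters, built without the respiratory chain genes and each named from markers, and cells are called epithelial, fibroblast and so on by likeness to those markers. All 10 epithelial markers were seen in the epithelial class, where they summed to 13342 and 13503 CPM (UMIs of a gene scaled to a total of 1000000 for each mouse and class) in PCSp mice and 11855 and 14366 CPM in PSp mice. In the other described classes their sum lay between 226 and 881 CPM in PCSp mice and between 210.2 and 762 CPM in PSp mice. The 3' tag of Chd1 does not check its deletion, since a tag can lie outside the floxed part.

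Mitochondrially encoded transcripts made up the largest share of RNA in epithelial cells, B and plasma cells and smooth muscle cells or pericytes, and the smallest in neutrophils. In epithelial cells the 13 genes took 5.08% and 4.51% of UMIs in PCSp mice and 5.54% and 6.77% in PSp mice. In B and plasma cells they took 3.96% and 4.58% in PCSp mice and 6.34% and 6.68% in PSp mice, from 21 to 75 cells per mouse. In smooth muscle cells or pericytes, from 37 to 72 cells per mouse, they took 4.07% and 4.19% in PCSp mice and 6.22% and 7.28% in PSp mice. Neutrophils, which rely largely on glycolysis, stood apart at 1.47% and 1.06% in PCSp mice and 1.21% and 2.00% in PSp mice. The other 4 classes (fibroblasts, endothelial cells, T and NK cells, macrophages and monocytes) lay between these, with 2.74% to 3.72% in PCSp mice and 3.56% to 4.83% in PSp mice.

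The nuclear genes had a different order. Their share was highest in epithelial cells, at 2.62% and 2.51% of UMIs in PCSp mice and 2.44% and 2.64% in PSp mice, and lowest in neutrophils, at 1.01% and 0.91% in PCSp mice and 0.86% and 0.93% in PSp mice. B and plasma cells, high for the mitochondrial genes, had the second lowest nuclear share, at 1.27% and 1.30% in PCSp mice and 1.36% and 1.46% in PSp mice, apart from fibroblasts of PSp mouse 2 at 1.34%. By mean CPM over the 4 mice, epithelial cells were the highest of the 8 described classes for 60 of the 94 nuclear genes and neutrophils the lowest for 67. Neutrophils were the lowest class for 13 of the 13 mitochondrial genes, whose highest class was epithelial for 5, B and plasma cells for 4 and smooth muscle cells or pericytes for 4. These differences between classes are given as a description, since the classes are groups of the same cells and come from the same 4 mice.

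**Figure D1:**
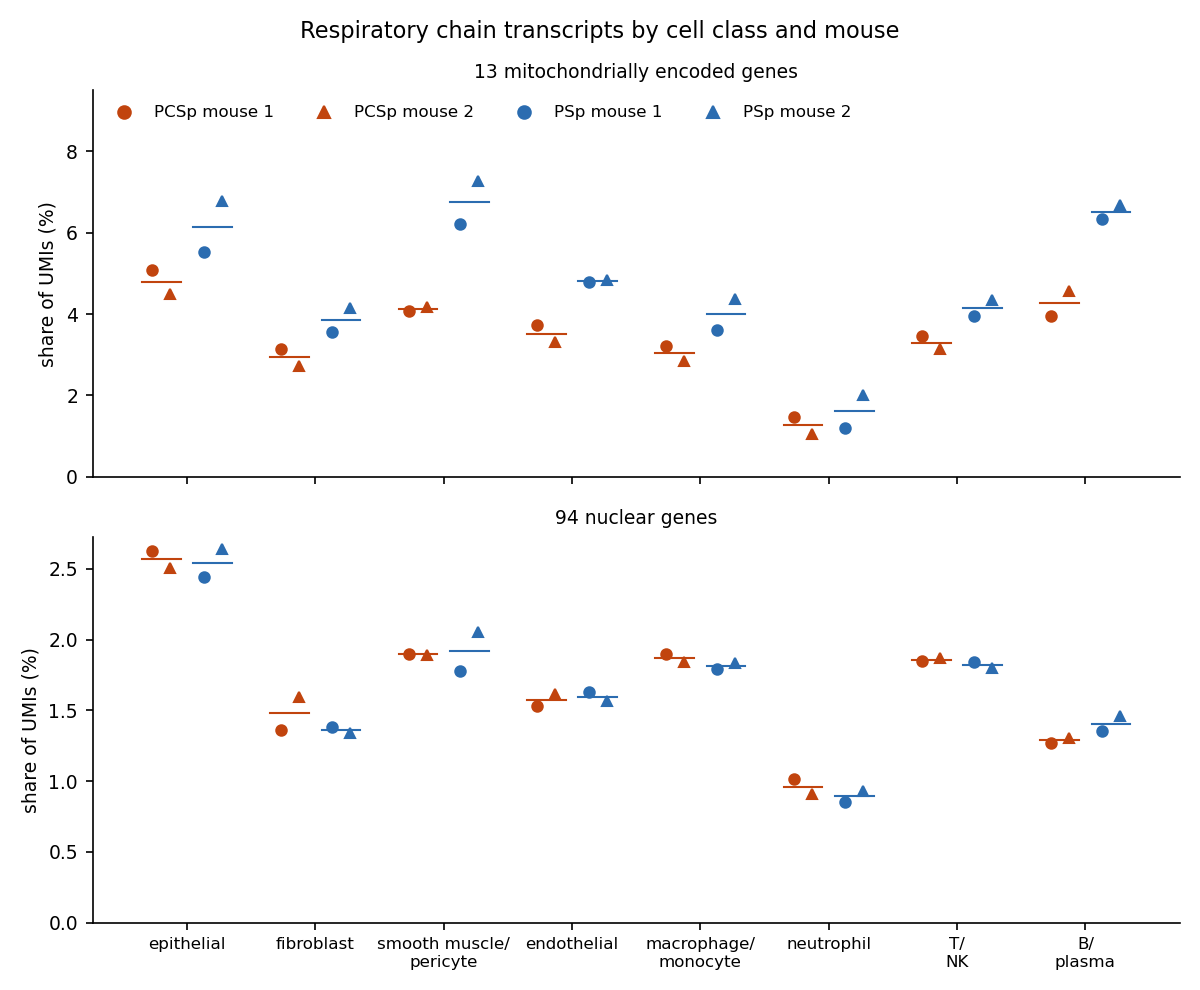
Share of UMIs (%) taken by the 13 mitochondrially encoded genes (top) and the 94 nuclear genes (bottom) in 8 cell classes. Each point is 1 mouse, lines are group means, and PCSp mice (orange) stand left of PSp mice (blue); in the top panel PCSp mice lie below PSp mice in 7 classes and overlap them in neutrophils, while the bottom panel shows much smaller gaps.

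Summed by complex, the epithelial level of the nuclear genes was 8188 CPM for complex I, 326 CPM for complex II, 2777 CPM for complex III, 6650 CPM for complex IV and 7386 CPM for complex V (means of 4 mice). The spread between mice was small, with SDs of 338, 16.7, 133, 256 and 220 CPM. Smooth muscle cells or pericytes were close to epithelial cells for complex II, at 342 CPM, and for complex I assembly factors, at 229 CPM against 205 CPM. In neutrophils complex I summed to 2749 CPM, complex II to 154 CPM, complex III to 805 CPM, complex IV to 2846 CPM and complex V to 2627 CPM. Neutrophils were thus below the epithelium for every complex, with the gap relatively smaller for complexes II and IV than for I, III and V. Cox8a, a small structural subunit of complex IV, was at 736 CPM in neutrophils and 1108 CPM in epithelial cells. Genes with a wide neutrophil gap were the complex I accessory subunits Ndufa5 (16.3 CPM in neutrophils and 169 CPM in smooth muscle cells or pericytes), Ndufc2 (27.6 CPM in neutrophils and 261 CPM in macrophages and monocytes) and Ndufa11 (32.9 CPM in neutrophils and 304 CPM in epithelial cells).

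Ndufa4l2, Cox4i2 and Cox6b2, isoforms or paralogues of common subunits, had the widest ranges of class means of all members, 9.25, 8.17 and 5.65 on the log2(CPM + 1) scale, where the widest range of a common subunit was 3.29 for Ndufa5. Other isoform genes lay within the range of the common subunits, such as Atp5g3 at 2.92 and Cox7a2l at 1.98. Ndufa4l2, a paralogue of Ndufa4 that is known as a hypoxia-inducible gene, was at 701 and 557 CPM in smooth muscle cells or pericytes of PCSp mice and at 488 and 678 CPM in those of PSp mice. The next class, endothelial cells, had 24.4 and 67.1 CPM in PCSp mice and 53.9 and 50.1 CPM in PSp mice, and epithelial cells had 13.04 and 17.7 CPM in PCSp mice and 40.4 and 22.7 CPM in PSp mice. No UMI of Ndufa4l2 was counted in T and NK cells or in B and plasma cells. Ndufa4 itself, counted with complex I here by its symbol and now regarded as a complex IV subunit, was at its highest in epithelial cells, at 754 and 763 CPM in PCSp mice and 729 and 704 CPM in PSp mice. In smooth muscle cells or pericytes Ndufa4 was at 117 and 151 CPM in PCSp mice and 146 and 231 CPM in PSp mice, so the class highest for Ndufa4l2 was low for Ndufa4, and by class mean neutrophils alone had less, at 112 and 94.9 CPM in PCSp mice and 83.8 and 80.1 CPM in PSp mice.

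Cox4i2, the alternative isoform of the complex IV subunit 4, followed the same cells. It was at 315 and 296 CPM in smooth muscle cells or pericytes of PCSp mice and at 244 and 294 CPM in those of PSp mice. Endothelial cells had 9.77 and 38.5 CPM in PCSp mice and 32.5 and 16.2 CPM in PSp mice, and fibroblasts had 6.63 and 3.74 CPM in PCSp mice and 7.37 and 19.1 CPM in PSp mice. Epithelial cells held 9 and 15 UMIs of Cox4i2 in PCSp mice and 15 and 44 in PSp mice, each under 1 CPM. The common isoform Cox4i1 showed no such restriction, with class means of 455 CPM in neutrophils to 1072 CPM in epithelial cells. In endothelial cells 7 of the 8 smooth muscle and pericyte markers were also seen, summing to 583 and 1535 CPM in PCSp mice and 1224 and 746 CPM in PSp mice, against 12368 to 20704 CPM in the smooth muscle class. The sum was higher in the endothelial libraries with more Cox4i2, and the part of such RNA in the endothelial values of Cox4i2 and Ndufa4l2 was not tested.

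Cox6b2, known as the testis isoform of complex IV subunit 6b, was found mainly in fibroblasts. It was at 92.4 and 111 CPM in fibroblasts of PCSp mice and at 72.9 and 77.9 CPM in those of PSp mice, where it rested on 277 to 599 UMIs per mouse. Smooth muscle cells or pericytes had 37.0 and 10.0 CPM in PCSp mice and 35.5 and 11.8 CPM in PSp mice from 2 to 12 UMIs, and the 8 fibroblast markers summed there to 1649 and 1386 CPM in PCSp mice and 1631 and 1149 CPM in PSp mice. Class means of Cox6b2 elsewhere were at most 6.20 CPM. The common isoform Cox6b1 was at 238 and 313 CPM in fibroblasts of PCSp mice and 246 and 241 CPM in those of PSp mice, and was highest in epithelial cells, at a mean of 636 CPM. The 3 genes of the complex V c subunit, Atp5g1, Atp5g2 and Atp5g3, were all broadly present, with means of 65.9, 118 and 42.3 CPM in neutrophils and 418, 582 and 327 CPM in epithelial cells. The muscle isoforms were scarce: Cox7a1 reached a mean of 16.8 CPM in smooth muscle cells or pericytes from 2 to 6 UMIs per mouse, Cox6a2 reached 7.61 CPM in macrophages and monocytes, and Cox8b reached 1.39 CPM in epithelial cells. Cox7b2 and Cox8c, isoforms known from testis, each had fewer than 50 UMIs in all.

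**Figure D2:**
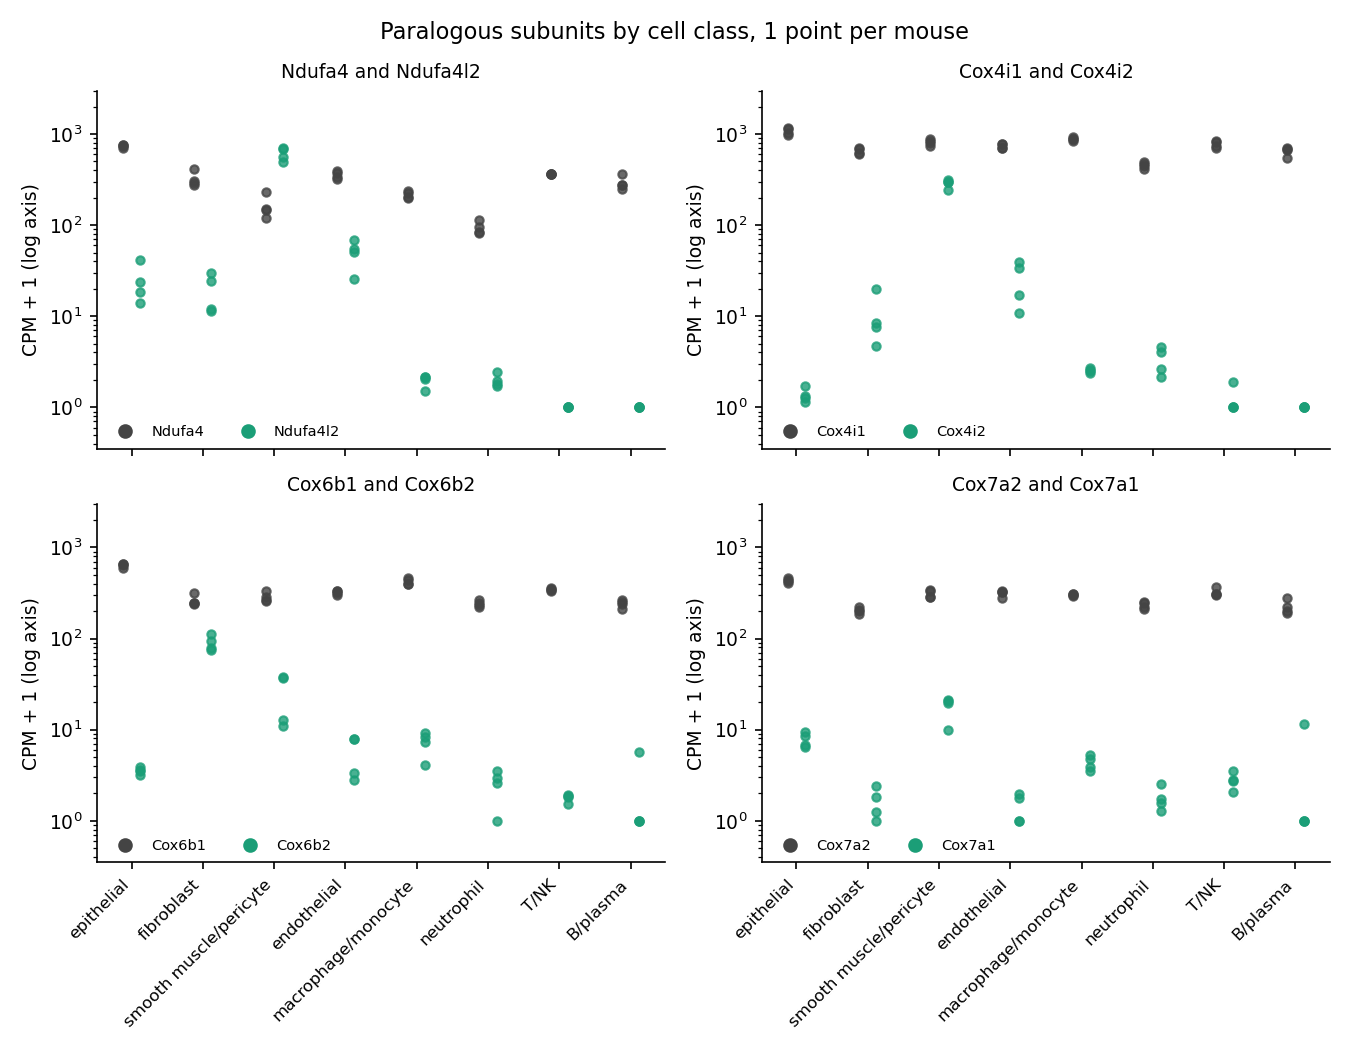
Levels of 4 pairs of paralogous genes in 8 cell classes, as CPM + 1 on a log axis, 1 point per mouse (PCSp and PSp mice together), with the common gene in grey and the restricted gene in green. Ndufa4l2 and Cox4i2 peak in smooth muscle cells or pericytes and Cox6b2 in fibroblasts, where the common genes Ndufa4, Cox4i1 and Cox6b1 show no peak; Cox7a1 is low throughout.

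The promoters of the Cox6b pair are shown because these genes differ in cell type, and those of Cox6a1 (common isoform of complex IV subunit 6a) and Ndufa11 because both hold the binding motif of NRF1, a factor known to control nuclear respiratory genes. Each runs from 250 bases before to 50 bases after the transcription start, on the strand of the gene (RefSeq, GRCm38.p6), and capitals mark the core motifs of NRF1 (GCGCATG), ETS factors (CCGGAAG) and YY1 (ATGGCGG), searched on both strands. The NRF1 core and its reverse complement share bases where they form a palindrome. Cox6b1 lies at chr7:30626065-30626364 on the minus strand, Cox6b2 at chr7:4753045-4753344 on the minus strand, Cox6a1 at chr5:115348909-115349208 on the minus strand, and Ndufa11 at chr17:56717512-56717811 on the plus strand.
Cox6b1: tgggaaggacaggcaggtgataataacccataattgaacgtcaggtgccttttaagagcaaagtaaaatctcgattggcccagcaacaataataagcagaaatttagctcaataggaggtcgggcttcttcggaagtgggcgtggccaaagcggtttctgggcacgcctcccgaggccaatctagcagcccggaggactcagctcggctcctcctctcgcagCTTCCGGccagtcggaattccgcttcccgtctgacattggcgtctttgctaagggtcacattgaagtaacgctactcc
Cox6b2: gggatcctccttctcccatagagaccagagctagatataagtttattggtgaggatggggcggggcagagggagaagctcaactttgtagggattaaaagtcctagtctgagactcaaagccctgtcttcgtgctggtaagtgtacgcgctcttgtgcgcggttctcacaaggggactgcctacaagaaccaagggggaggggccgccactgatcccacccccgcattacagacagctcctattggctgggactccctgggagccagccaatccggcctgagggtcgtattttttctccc
Cox6a1: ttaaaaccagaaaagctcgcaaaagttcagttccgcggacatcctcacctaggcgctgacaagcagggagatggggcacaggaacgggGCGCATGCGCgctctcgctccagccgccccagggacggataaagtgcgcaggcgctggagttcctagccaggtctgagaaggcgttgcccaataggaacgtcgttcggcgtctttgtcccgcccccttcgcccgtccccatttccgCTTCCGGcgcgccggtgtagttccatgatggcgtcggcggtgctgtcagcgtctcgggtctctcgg
Ndufa11: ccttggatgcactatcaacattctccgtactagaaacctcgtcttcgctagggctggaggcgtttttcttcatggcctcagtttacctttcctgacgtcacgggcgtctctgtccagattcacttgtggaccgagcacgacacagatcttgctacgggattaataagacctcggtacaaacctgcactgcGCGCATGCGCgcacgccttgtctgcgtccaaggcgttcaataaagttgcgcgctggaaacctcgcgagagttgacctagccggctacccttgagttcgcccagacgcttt
Cox6b1 holds 1 ETS match, Cox6a1 an NRF1 and an ETS match, Ndufa11 an NRF1 match, and Cox6b2 none of the 3. Promoters were matched for 77 of the 94 nuclear genes. Of these, 19.5% held the NRF1 motif, 23.4% the ETS motif and 14.3% the YY1 motif, where 4.04%, 9.12% and 4.19% of all 27025 promoters did. The motifs ACGTG, bound by hypoxia-inducible factors, and TGGGAA, bound by RBPJ, were held by 24.7% and 19.5% of the matched members and by 19.7% and 25.5% of all promoters. These matches are descriptions of letters and do not show binding.

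The main contrast of the genotypes set the mitochondrially encoded genes against the nuclear ones within each cell class. In epithelial cells the log2 ratio of mitochondrial to nuclear UMIs was 0.95 and 0.85 in PCSp mice, against 1.18 and 1.36 in PSp mice, a mean difference of -0.37. Fibroblasts had 1.20 and 0.78 in PCSp mice and 1.36 and 1.63 in PSp mice, a difference of -0.51. Macrophages and monocytes had 0.76 and 0.63 in PCSp mice and 1.01 and 1.25 in PSp mice, a difference of -0.44. T and NK cells differed by -0.36, endothelial cells by -0.43, B and plasma cells by -0.49 and smooth muscle cells or pericytes by -0.69. In these 7 classes both PCSp mice were under both PSp mice, and the exact two-sided permutation test gave p = 0.333, the smallest that 2 against 2 mice allow. In neutrophils the ratio was 0.53 and 0.22 in PCSp mice and 0.50 and 1.11 in PSp mice, a difference of -0.42 with overlapping groups (exact permutation p = 0.667). The classes come from the same 4 mice, so their shared direction is not 7 separate observations.

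In the 6 classes with at least 50 cells per mouse, the difference lay mostly in the mitochondrial side of the ratio. The log2 level of the 13 genes differed between PCSp and PSp mice by -0.36 in epithelial cells, -0.39 in fibroblasts, -0.39 in macrophages and monocytes, -0.32 in neutrophils, -0.45 in endothelial cells and -0.33 in T and NK cells. The log2 level of the nuclear genes differed by 0.01 in epithelial cells, 0.11 in fibroblasts, 0.05 in macrophages and monocytes, 0.11 in neutrophils, -0.02 in endothelial cells and 0.03 in T and NK cells. In T and NK cells, for example, the nuclear share was 1.85% and 1.87% in PCSp mice and 1.84% and 1.80% in PSp mice, while the mitochondrial share was 3.45% and 3.15% in PCSp mice and 3.96% and 4.34% in PSp mice. The share of barcodes past the limit of 20% mitochondrial UMIs was also lower in PCSp mice, at 8.28% and 6.41% (745 and 579 barcodes), against 9.05% and 9.90% in PSp mice (542 and 682 barcodes). Without that limit the ratio difference was -0.38 in epithelial cells, and with a limit of 10% it was -0.33.

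Depth differed between the libraries, and the contrast was therefore taken within ranges of UMIs per cell. In epithelial cells with 10000 UMIs or more, the log2 ratio was 0.95 and 0.79 in PCSp mice and 1.19 and 1.37 in PSp mice, and with 5000 to 9999 UMIs it was 1.36 and 1.27 in PCSp mice and 1.55 and 1.69 in PSp mice. Below that depth the groups overlapped or changed order: with 2000 to 4999 UMIs the values were 0.78 and 1.53 in PCSp mice and 0.93 and 1.32 in PSp mice, and with 1000 to 1999 UMIs they were 0.02 and 0.93 in PCSp mice and -0.23 and -0.29 in PSp mice. Both PCSp mice were under both PSp mice in fibroblasts of each range from 2000 UMIs up and in macrophages and monocytes of each range from 5000 UMIs up, with overlap in the lower ranges of both classes. Macrophages and monocytes with 10000 UMIs or more, for example, had 0.48 and 0.22 in PCSp mice and 0.95 and 1.15 in PSp mice. Neutrophils with 1000 to 1999 UMIs had 0.51 and 0.16 in PCSp mice and 0.84 and 0.92 in PSp mice, and those with 2000 to 4999 UMIs had 0.49 and 0.28 in PCSp mice and 0.46 and 1.07 in PSp mice. Genes of the dissociation stress response, a sign of tissue handling, had a median log2 fold change of -0.12 in epithelial cells, 0.02 in fibroblasts, -0.25 in macrophages and monocytes, -0.52 in neutrophils, 0.20 in endothelial cells and 0.10 in T and NK cells. Of these genes edgeR called 1, Hspa1a in T and NK cells, where it called 0.37% of all genes. DESeq2 called Hspa1a there and Fos in neutrophils, beside 0.813% and 0.833% of the 3691 and 2282 genes to which it gave an adjusted p. At an unadjusted edgeR p under 0.05, 6 of 12 were lower in neutrophils, beside 4.98%, and 5 of 12 higher in endothelial cells, beside 3.52%. In T and NK cells 2 were lower and 2 higher, beside 4.53% and 3.81%. In macrophages and monocytes 1 was lower and 1 higher, beside 2.9% and 2.92%. In fibroblasts 1 was higher, beside 2.03%, and in epithelial cells 0 were lower or higher, beside 3.63% and 4.18%. The part of handling in the mitochondrial difference was not tested.

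Among the single genes, mt-Nd3, a core subunit of complex I, had the largest difference of the 13 mitochondrial genes in each of the 6 classes with at least 50 cells per mouse. In epithelial cells mt-Nd3 was at 539 and 434 CPM in PCSp mice, against 793 and 1083 CPM in PSp mice. In T and NK cells it was at 347 and 264 CPM in PCSp mice, against 529 and 633 CPM in PSp mice. In neutrophils, where the summed genes overlapped, mt-Nd3 was at 163 and 103 CPM in PCSp mice and 172 and 322.5 CPM in PSp mice, which did not overlap. Its log2 fold changes (PCSp over PSp, edgeR on counts summed per mouse) lay between -0.98 in fibroblasts and -0.90 in macrophages and monocytes, and both PCSp mice were below both PSp mice in 6 of 6 classes, as 14.2% to 17.5% of all genes tested were in these classes.

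In T and NK cells 3 of the 96 members tested passed at an adjusted p of 0.05, where 0.37% of all genes tested passed in either direction and 0.294% as lower in PCSp mice. All 3 were mitochondrial. mt-Nd3 fell by 0.97 ± 0.14 on the log2 scale (SE, edgeR adjusted p = 0.0115). mt-Nd2, also a core subunit of complex I, was at 1618 and 1538 CPM in PCSp mice and 2120 and 2278 CPM in PSp mice and fell by 0.53 ± 0.09 (SE, edgeR adjusted p = 0.0220). mt-Co3, a core subunit of complex IV, was at 6021 and 5528 CPM in PCSp mice and 7645 and 8766 CPM in PSp mice and fell by 0.56 ± 0.09 (SE, edgeR adjusted p = 0.0230). At an unadjusted edgeR p under 0.05, 10 of the 13 mitochondrial genes and 3 of the 83 nuclear ones were lower in PCSp mice, beside 4.53% of all genes, and 1 nuclear member was higher, beside 3.81%. DESeq2 called 6 mitochondrial genes and 0 nuclear ones in these cells. It called 0.813% of the 3691 genes to which it gave an adjusted p, a smaller set than it tested. Not every call held under the alternatives. At a mitochondrial limit of 10%, mt-Nd2 fell by 0.51 and no longer passed (edgeR adjusted p = 0.0674), and with doublets kept mt-Co3 fell by 0.54 and no longer passed (edgeR adjusted p = 0.0703), which left 2 calls each, beside 0.31% and 0.253% of all genes. The edgeR count of called members was 5 without PCSp mouse 1 and 6 without PSp mouse 1, where 1.2% and 0.82% of all genes were called. Some marker sets of other cell types moved with genotype in these cells. All 8 fibroblast markers were seen, summing to 122 and 101 CPM in PCSp mice and 54.0 and 41.3 CPM in PSp mice, and all 9 macrophage and monocyte markers, at 54.2 and 49.6 CPM in PCSp mice and 41.0 and 25.6 CPM in PSp mice. Of the 8 endothelial markers 7 were seen, at 31.3 and 23.9 CPM in PCSp mice and 54.9 and 55.3 CPM in PSp mice. The part of such RNA in the calls was not tested.

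In the other 5 classes edgeR called 0 members, where it called 0% of all genes in epithelial cells, fibroblasts and endothelial cells, 0.0694% in macrophages and monocytes and 0.0875% in neutrophils. At an unadjusted edgeR p under 0.05, 9 of 104 members were lower in epithelial cells and 10 of 99 in endothelial cells, beside 3.63% and 2.84% of all genes, and 8 of 102 in macrophages and monocytes, beside 2.9%. None was higher in these 3 classes, where 4.18%, 3.52% and 2.92% of all genes were. In fibroblasts 7 of 102 were lower and 1 higher, beside 1.73% and 2.03% of all genes, and in neutrophils 2 of 98 were lower and 4 higher, beside 4.98% and 3.84%. DESeq2 called 3 members in epithelial cells (mt-Nd2, mt-Nd3 and Ndufa4l2), 1 in fibroblasts (mt-Nd3), 2 in macrophages and monocytes (mt-Nd3 and mt-Co3), 3 in endothelial cells (mt-Nd3, mt-Co3 and mt-Atp6) and 0 in neutrophils. In the same order, it called 1.26%, 0.015%, 0.177%, 0.0785% and 0.833% of the genes to which it gave an adjusted p. For mt-Nd3 the log2 fold changes were -0.97 ± 0.20 in epithelial cells (SE, edgeR adjusted p = 0.412), -0.98 ± 0.19 in fibroblasts (0.813), -0.90 ± 0.15 in macrophages and monocytes (0.137), -0.93 ± 0.15 in endothelial cells (0.1496) and -0.94 ± 0.27 in neutrophils (0.386). The edgeR call of mt-Nd3 turned to passing without PCSp mouse 1 in endothelial cells, fibroblasts and neutrophils, without PSp mouse 1 in endothelial cells and in macrophages and monocytes, and without PSp mouse 2 in endothelial cells. The 10 epithelial markers summed in endothelial cells to 635 and 455 CPM in PCSp mice and 240.5 and 295 CPM in PSp mice, and the 8 fibroblast markers in epithelial cells to 481 and 391 CPM in PCSp mice and 299 and 239 CPM in PSp mice, and their part in these values was not tested.

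The 13 genes did not share 1 size of difference. After mt-Nd3 came mt-Co3, with log2 fold changes of -0.64 to -0.54 over the 6 classes, mt-Atp6, a membrane subunit of complex V, with -0.61 to -0.47, and mt-Nd2, with -0.53 to -0.42. mt-Atp8 (complex V), mt-Co2 (complex IV), mt-Cytb (the core of complex III) and mt-Nd1 lay between -0.48 and -0.24, and mt-Co1, the catalytic subunit of complex IV, and mt-Nd4 between -0.35 and -0.11. mt-Nd4l and mt-Nd5, both complex I subunits, lay near 0, with -0.05 to 0.17 and -0.15 to 0.08. In T and NK cells both PCSp mice were above both PSp mice for each, with mt-Nd4l at 588 and 541 CPM in PCSp mice and 509.8 and 466 CPM in PSp mice, and mt-Nd5 at 943 and 924 CPM in PCSp mice and 878 and 896 CPM in PSp mice, and neither passed (edgeR adjusted p = 0.726 and 0.975). Of the 7829 genes tested in these cells, 1878 had both PCSp mice above both PSp mice. In epithelial cells mt-Nd5 was at 1027 and 919 CPM in PCSp mice and 892 and 928 CPM in PSp mice, and mt-Nd4l at 984 and 865 CPM in PCSp mice and 832 and 875 CPM in PSp mice, so both overlapped, as they did in the other 4 classes. mt-Nd6, encoded on the other strand, ranged from -0.37 to 0.11.

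**Figure D3:**
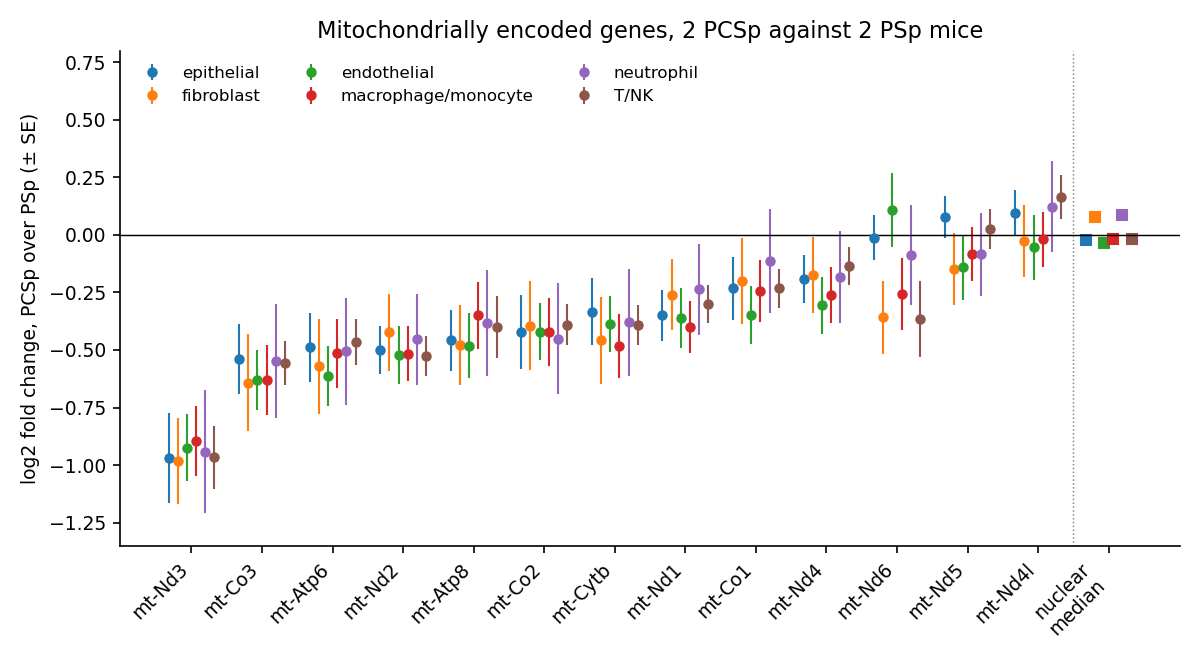
Log2 fold change (PCSp over PSp, edgeR, bars ± SE) of the 13 mitochondrially encoded genes in 6 cell classes, ordered by their mean, with squares at the right for the median of the nuclear genes tested. mt-Nd3 lies between -0.98 and -0.90 in each class, mt-Nd5 and mt-Nd4l lie near 0, and the nuclear medians lie between -0.04 and 0.09.

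The makeup of the mitochondrial RNA is shown without reference to the rest of the cell by the share of each gene in the UMIs of the 13. mt-Nd3 took 0.83% to 1.11% of these UMIs over 8 classes in PCSp mice and 1.27% to 1.61% in PSp mice. In epithelial cells its share was 1.06% and 0.963% in PCSp mice and 1.43% and 1.60% in PSp mice, and in neutrophils it was 1.11% and 0.970% in PCSp mice and 1.42% and 1.61% in PSp mice. mt-Co3 took 16.4% and 16.2% of the epithelial mitochondrial UMIs in PCSp mice and 17.9% and 18.4% in PSp mice. For mt-Nd3, mt-Co3 and mt-Atp6 both PCSp mice were under both PSp mice in 8 of 8 classes. For mt-Nd5, mt-Co1 and mt-Nd4 both PCSp mice lay above in 8 of 8 classes, as they did for mt-Nd4l in 7, with overlap in smooth muscle cells or pericytes. mt-Nd5, for example, took 2.02% and 2.04% in epithelial cells of PCSp mice and 1.61% and 1.37% in those of PSp mice. The remaining genes were less uniform: the groups overlapped in 6 of 8 classes for mt-Co2, mt-Nd1 and mt-Atp8. They overlapped in 5 for mt-Nd2 and in 4 for mt-Cytb and mt-Nd6. Shares sum to the whole, so a lower share of some genes entails a higher share of others, and the classes share their mice.

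**Figure D4:**
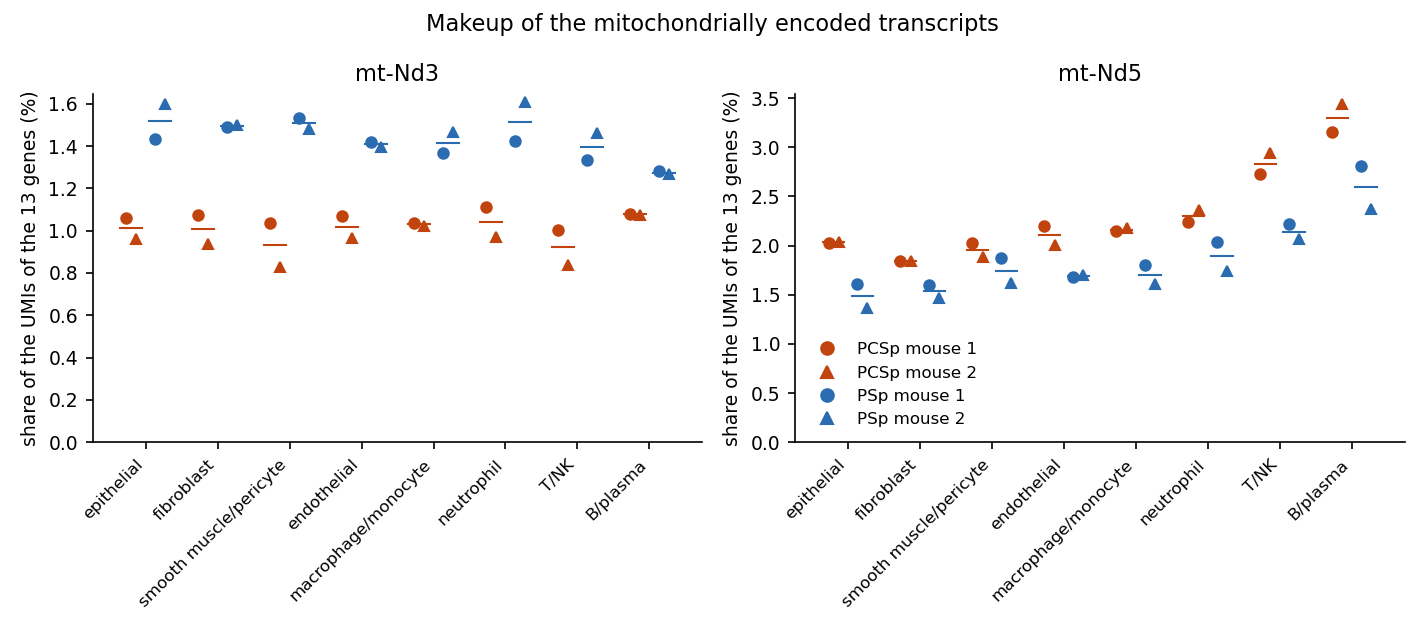
Share (%) of mt-Nd3 (left) and mt-Nd5 (right) in the UMIs of the 13 mitochondrially encoded genes, by cell class, 1 point per mouse, lines for group means, PCSp (orange) left of PSp (blue). PCSp mice lie below PSp mice for mt-Nd3 and above them for mt-Nd5 in 8 of 8 classes, with mt-Nd3 between 0.83% and 1.11% in PCSp mice and between 1.27% and 1.61% in PSp mice.

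The annotated 3' ends of 4 mitochondrial genes are shown because a 3' tag is read near the end of a transcript. These 4 were taken because mt-Nd3 and mt-Co3 differed most in level while mt-Nd4l and mt-Nd5 differed least. An annotated end need not be the end of the RNA, and where the tags of these genes lie was not tested. The sequences are the last 60 bases of each annotated transcript on the plus strand of the mitochondrial genome (GENCODE M21, GRCm38). Capitals mark runs of 5 or more A, to which an oligo-dT primer could also anneal. mt-Nd3 ends at chrM:9747-9806, mt-Co3 at chrM:9331-9390, mt-Nd4l at chrM:10114-10173 and mt-Nd5 at chrM:13506-13565.
mt-Nd3: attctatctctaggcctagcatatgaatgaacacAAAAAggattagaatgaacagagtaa
mt-Co3: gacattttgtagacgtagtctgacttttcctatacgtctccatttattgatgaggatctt
mt-Nd4l: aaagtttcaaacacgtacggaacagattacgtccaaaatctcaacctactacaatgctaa
mt-Nd5: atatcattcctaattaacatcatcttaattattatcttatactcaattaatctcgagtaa
Of the 13 transcripts, mt-Nd3 alone held such a run in its last 60 bases, 21 bases before its end. mt-Nd3 is 348 bases long with 2 runs of 5 or more A, mt-Nd4l 297 bases with 0, mt-Co3 784 bases with 1 and mt-Nd5 1824 bases with 7. mt-Nd4l and mt-Nd4 overlap by 7 bases and mt-Atp8 and mt-Atp6 by 43, and the shared bases do not tell the genes of a pair apart. mt-Co3 ends in T, the first base of a stop codon that is completed by polyadenylation in mitochondria. mt-Nd3 and mt-Nd4l are neighbours of the same strand, with mt-Nd3 ending at position 9806 and mt-Nd4l starting at 9877. mt-Nd3 passed in T and NK cells, and edgeR called mt-Nd4l in none of the 6 classes.

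The nuclear members had median differences near 0 between the genotypes. In epithelial cells the median log2 fold change was -0.02 over the 91 nuclear members tested and -0.0055 over all 16477 genes tested, while it was -0.35 over the 13 mitochondrial genes. Both PCSp mice were under both PSp mice in CPM for 11 nuclear members and 9 mitochondrial ones, where 17.5% of all genes did so, and above for 15 nuclear members and 0 mitochondrial ones, where 22.1% of all genes did so. Medians of the nuclear members were 0.08 in fibroblasts, -0.02 in macrophages and monocytes, 0.09 in neutrophils, -0.04 in endothelial cells and -0.02 in T and NK cells. Those of the mitochondrial genes were -0.39, -0.40, -0.38, -0.39 and -0.39 in the same classes.

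By complex, the epithelial medians were -0.02 for nuclear complex I subunits, -0.02 for the assembly factors, -0.10 for complex II, -0.03 for complex III, -0.01 for complex IV and -0.0037 for complex V. The abundant subunits were nearly equal in the mice. Atp5h, a subunit of the complex V stalk, was at 614 and 606 CPM in PCSp mice and 577 and 608 CPM in PSp mice, and Uqcrh, the hinge protein of complex III, at 697 and 684 CPM in PCSp mice and 636 and 690 CPM in PSp mice. Sdhb, the iron-sulphur subunit of complex II, was at 118 and 116 CPM in PCSp mice and 112 and 119 CPM in PSp mice. Cox4i1 was at 1165 and 1130 CPM in PCSp mice and 971 and 1023 CPM in PSp mice, giving 0.18 ± 0.09 on the log2 scale (SE; adjusted p = 0.675 in edgeR), and did not overlap. Ndufa4 did not overlap either, at 754 and 763 CPM in PCSp mice and 729 and 704 CPM in PSp mice, giving 0.06 ± 0.08 (SE; adjusted p = 0.858 in edgeR). The other members named by high level, Ndufa13, Sdha, Uqcr10, Cox8a and Atp5e, had log2 fold changes of -0.12 to -0.0014 and overlapped.

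The 2 nuclear members at an unadjusted edgeR p under 0.05 in the epithelium were isoforms of low level. Ndufa4l2 was at 13.04 and 17.7 CPM in epithelial cells of PCSp mice and 40.4 and 22.7 CPM in those of PSp mice, giving -1.05 ± 0.30 on the log2 scale (SE; adjusted p = 0.526 in edgeR). Cox8b was at 1.01 and 0.672 CPM in PCSp mice and 1.59 and 2.31 CPM in PSp mice, from 30 to 146 UMIs (-1.23 ± 0.32 SE, edgeR adjusted p = 0.503). All 8 smooth muscle and pericyte markers were seen in the epithelial class, summing to 68.3 and 114 CPM in PCSp mice and 96.2 and 67.0 CPM in PSp mice. Ndufa11 and Cox7a2l, a factor that joins complexes III and IV into supercomplexes, had log2 fold changes of 0.11 ± 0.09 and 0.09 ± 0.08 (SE, edgeR adjusted p = 0.780 and 0.805).

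Neutrophils had the largest number of nuclear members with both PCSp mice above both PSp mice, 32 of 85 tested, where 23.6% of all genes did so. Ndufa11 was at 39.7 and 46.4 CPM in neutrophils of PCSp mice and 25.7 and 19.8 CPM in those of PSp mice, giving 0.89 ± 0.21 on the log2 scale (SE; adjusted p = 0.226 in edgeR). Without PCSp mouse 1 it was 1.02 and passed (edgeR adjusted p = 0.00149), where 3.99% of all genes passed. The accessory subunits Ndufa8 and Ndufa13 had log2 fold changes of 0.42 ± 0.16 and 0.36 ± 0.15 (SE, edgeR adjusted p = 0.502 and 0.519) and Ndufa5 0.53 ± 0.24 (adjusted p = 0.563). Neutrophils had a median of 2382 and 1636 UMIs per cell in PCSp mice and 2743 and 2507 in PSp mice. Some marker sets of other cell types were higher in neutrophils of PCSp mice. The 10 epithelial markers summed to 881 and 865 CPM in PCSp mice and 568 and 762 CPM in PSp mice. The 8 fibroblast markers summed to 195 and 207 CPM in PCSp mice and 116 and 102 CPM in PSp mice. The 9 macrophage and monocyte markers summed to 939.7 and 1054 CPM in PCSp mice and 806 and 875 CPM in PSp mice. Other sets were not higher. The 9 T and NK markers summed to 11.5 and 11.3 CPM in PCSp mice and 11.6 and 17.8 CPM in PSp mice. The 8 endothelial markers overlapped, at 57.3 and 44.5 CPM in PCSp mice and 48.2 and 49.8 CPM in PSp mice, as did the mast cell markers. The part of depth and of RNA from other cells in these values was not tested.

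In other classes the members of smallest p among those with positive log2 fold changes were nuclear, namely Ndufb8 in T and NK cells, Ndufc1 in endothelial cells, Ndufa4 in macrophages and monocytes and Cox6b2 in fibroblasts, and none passed in edgeR. Ndufa4 was at 226 and 239 CPM in macrophages and monocytes of PCSp mice and 196 and 205 CPM in those of PSp mice (0.17 ± 0.11 SE, edgeR adjusted p = 0.888), and Ndufc1, an accessory subunit of complex I, had 0.29 ± 0.18 in endothelial cells (SE, edgeR adjusted p = 0.868). Ndufb8, an accessory subunit of complex I, was at 178 and 177 CPM in T and NK cells of PCSp mice and 145 and 138 CPM in those of PSp mice (0.28 ± 0.11 SE, edgeR adjusted p = 0.486). Cox6b2 in fibroblasts had 0.40 ± 0.15 on the log2 scale (SE, edgeR adjusted p = 0.998), with both PCSp mice above both PSp mice. The same was true of 2126 of the 12157 genes tested in fibroblasts. Cox4i2 in fibroblasts, singled out after its values were seen, had -1.32 ± 0.48 (SE, edgeR adjusted p = 0.998), from 18 to 68 UMIs per mouse. The 8 smooth muscle and pericyte markers summed in fibroblasts to 495 and 846 CPM in PCSp mice and 467 and 393 CPM in PSp mice, which is the opposite order.

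Whether the genotype difference of a member was unlike in epithelial cells, where the Cre acts, and in other classes was tested by the interaction of class and genotype, with mouse as a block. No member passed against any of the 5 classes, where 0.417% of all genes passed against T and NK cells, 0.442% against endothelial cells, 0.0362% against fibroblasts, 0.0318% against macrophages and monocytes and 0.266% against neutrophils. At an unadjusted edgeR p under 0.05 there were 4 of 105 members against T and NK cells, 1 of 104 against endothelial cells, 2 of 104 against fibroblasts, 1 of 105 against macrophages and monocytes and 7 of 104 against neutrophils, beside 4.95%, 5.15%, 4.84%, 4.26% and 6.59% of all genes, shares close to or above those of the members. For the 13 mitochondrial genes the difference of log2 fold changes, epithelial minus the other class, lay between -0.14 and 0.37 over the 5 classes. The smallest adjusted p was that of Ndufa11 against neutrophils, -0.79 ± 0.20 (SE, edgeR adjusted p = 0.0860). A missed threshold does not show that the classes are alike.

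Within the epithelium the mitochondrial share also differed between named subclasses. Basal cells took 3.03% and 3.14% of UMIs in PCSp mice and 3.93% and 4.13% in PSp mice. Cycling cells took 3.68% and 3.50% in PCSp mice and 4.09% and 4.93% in PSp mice. Luminal progenitor cells took 5.66% and 5.03% in PCSp mice and 5.93% and 6.77% in PSp mice. Luminal cells were highest, at 6.37% and 6.84% in PCSp mice and 9.13% and 8.88% in PSp mice, and neuroendocrine cells, 7 to 24 per mouse, took 5.04% and 4.92% in PCSp mice and 7.13% and 8.23% in PSp mice. Both PCSp mice were under both PSp mice in each of these 5 subclasses.

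The nuclear share ordered the subclasses otherwise. Basal cells were lowest, at 2.06% and 2.12% in PCSp mice and 2.15% and 2.13% in PSp mice, and cycling cells held 2.90% and 2.94% in PCSp mice and 2.88% and 2.90% in PSp mice. Neuroendocrine cells had 3.61% and 3.90% in PCSp mice and 2.66% and 3.29% in PSp mice, and their log2 ratio of mitochondrial to nuclear UMIs was 0.48 and 0.33 in PCSp mice and 1.42 and 1.32 in PSp mice. Cycling cells, high in nuclear and low in mitochondrial transcripts, had ratios of 0.34 and 0.25 in PCSp mice and 0.50 and 0.76 in PSp mice. When the same number of cells was taken from each epithelial sub-cluster in every mouse, the epithelial ratio difference was -0.38, and it was -0.36 in basal cells alone, -0.34 in cycling cells and -0.31 in luminal progenitor cells.

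Some epithelial sub-clusters departed from the rest in the balance of the 2 genomes. Sub-clusters 0, 1, 2 and 13, with medians of 1035 to 4096 UMIs, held 0.332% to 1.31% mitochondrial and 2.63% to 4.26% nuclear UMIs. The largest of them, sub-cluster 1 with 2472 cells and a median of 1329.5 UMIs, was led by Igkc, Fam25c and other genes outside the marker lists, and took no subclass name. Gm26917 was among the 10 leading genes of sub-clusters 12, 14, 17, 18 and 21. Sub-cluster 18, with 49 cells, was otherwise led by C1qa, C1qb, Lyz2, Cd74 and other genes known from macrophages and antigen-presenting cells, with no epithelial marker among its 10 leading genes. Of the others, sub-cluster 14 held 11.1% mitochondrial and 2.31% nuclear UMIs, sub-cluster 12 held 7.44% and 0.987%, and the basal sub-cluster 17 held 7.74% and 1.49%. The sub-clusters with medians over 10000 UMIs spread from 2.94% to 7.94% mitochondrial and from 1.62% to 3.71% nuclear UMIs. Both lower bounds are those of sub-cluster 10, which has 6 cells. With the epithelial sum limited to sub-clusters of a median of at least 3000 UMIs, the ratio difference was -0.39. These sub-clusters were defined on other genes of the same cells, so their shares are descriptions.

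**Figure D5:**
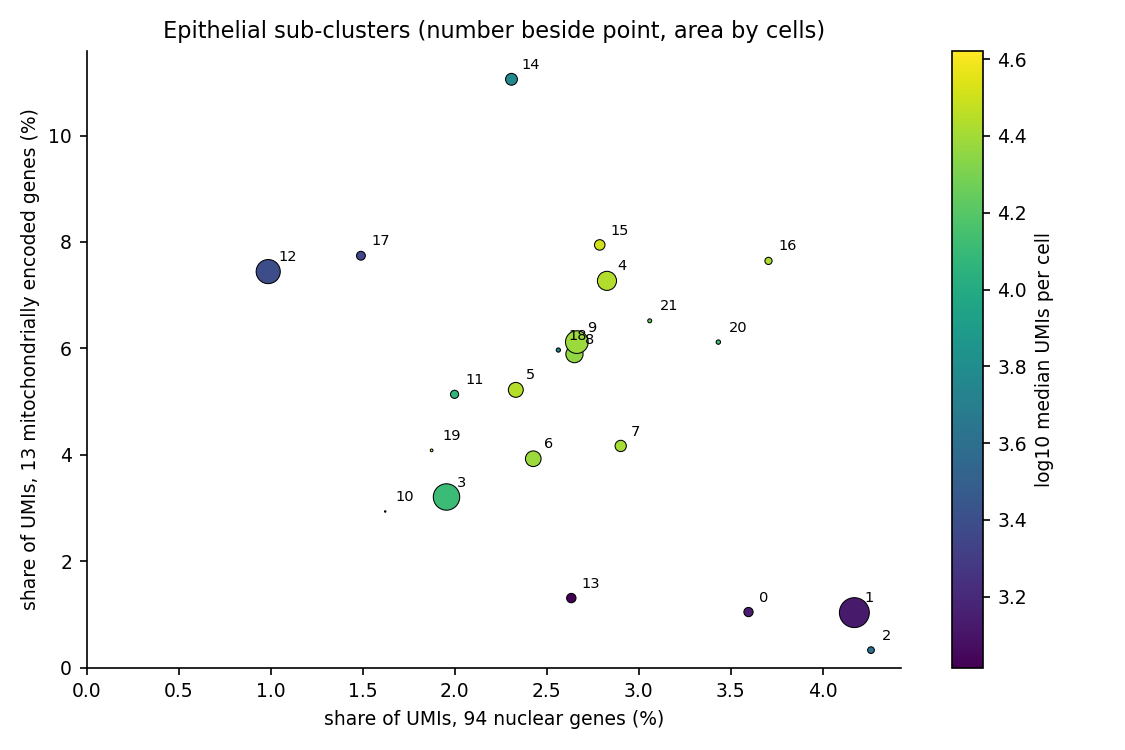
Share of UMIs (%) of the 94 nuclear genes (horizontal) and of the 13 mitochondrially encoded genes (vertical) in each epithelial sub-cluster, all mice together, with area by number of cells and colour by median UMIs per cell on a log10 scale. Sub-clusters 0, 1, 2 and 13 lie low, at 0.332% to 1.31% mitochondrial. Sub-clusters 12 and 17 lie farthest to the left, at 0.987% and 1.49% nuclear, and 14 lies at the top. The sub-clusters with medians over 10000 UMIs spread from 2.94% (sub-cluster 10, with 6 cells) to 7.94% mitochondrial.

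Other gene lists around the mitochondrion were set beside the members in epithelial cells, and edgeR called 0 genes of each, as it called 0% of all genes. At an unadjusted edgeR p under 0.05, 3.63% of all genes were lower in PCSp mice and 4.18% higher. DESeq2 called 1.26% of the 15751 genes to which it gave an adjusted p. The genes of these lists under that unadjusted p were lower in PCSp mice, and 0 were higher. Of 30 tested genes for the control of mitochondrial gene expression and biogenesis, 23 had negative log2 fold changes with a median of -0.05, 0 had an unadjusted p under 0.05, and DESeq2 called 0. Ppargc1b, a coactivator of mitochondrial biogenesis, was at 5.39 and 6.36 CPM in PCSp mice and 7.21 and 6.88 CPM in PSp mice. The 78 mitochondrial ribosomal protein genes had a median of -0.02 (3 at an unadjusted p under 0.05, 0 by DESeq2), with Mrpl30 at 142 and 135 CPM in PCSp mice and 157 and 162 CPM in PSp mice. The 34 genes of cytochrome c and the assembly of complexes III to V had a median of -0.11 (0 and 0), and the 18 of the tricarboxylic acid cycle -0.04 (2 and 0), with citrate synthase Cs at 46.6 and 46.8 CPM in PCSp mice and 55.3 and 52.2 CPM in PSp mice.

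The glycolysis list had the lowest median of these lists in epithelial cells. Of its 16 tested genes, 15 had negative log2 fold changes, and the median was -0.27. At an unadjusted p under 0.05, 11 were lower, beside 3.63% of all genes. DESeq2 called Eno1 and Pgk1 of the 17 it tested, beside 1.26% of the genes to which it gave an adjusted p. The enolase gene Eno1 was at 267 and 270 CPM in PCSp mice and 336 and 343 CPM in PSp mice (-0.36 ± 0.08 SE, edgeR adjusted p = 0.431), and Pgam1, a phosphoglycerate mutase, at 244 and 248 CPM in PCSp mice and 321 and 293 CPM in PSp mice. The mitophagy and hypoxia list had a median of -0.13 over 12 genes. Of these 2 were lower at an unadjusted p under 0.05, beside 3.63% of all genes, and DESeq2 called 0. The mitophagy receptor Bnip3 was at 74.5 and 71.0 CPM in PCSp mice and 98.6 and 87.6 CPM in PSp mice (-0.37 ± 0.08 SE, edgeR adjusted p = 0.431). Egln3, an oxygen-sensing hydroxylase, was at 57.9 and 53.5 CPM in PCSp mice and 95.1 and 68.3 CPM in PSp mice (-0.57 ± 0.16 SE, edgeR adjusted p = 0.526). For Eno1, Pgam1, Bnip3 and Egln3, named for their small p, both PCSp mice were under both PSp mice, as 17.5% of all genes were. The mitochondrial stress and amino acid response list had a median of -0.11 over 15 genes. In it 3 were lower at an unadjusted p under 0.05, beside 3.63% of all genes, and DESeq2 called 0. In it, the asparagine synthetase gene Asns was at 16.1 and 15.7 CPM in PCSp mice and 20.04 and 19.1 CPM in PSp mice. Medians of the glycolysis list elsewhere were 0.08 in fibroblasts, -0.20 in macrophages and monocytes, -0.17 in neutrophils, -0.06 in endothelial cells and -0.15 in T and NK cells.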

How the data were processed

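Whole prostate tumours were profiled with 10x Genomics 3' v3 chemistry, 1 library per mouse. The authors deposited UMI counts per gene and barcode, made with Cell Ranger 6.1.2 against mm10, per the submitters' processing notes, as filtered matrices holding barcodes of 500 UMIs or more. Replicates were separate mice, and litter, batch and dissection day are not given in the sources used here.

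Barcodes were used from 300 detected genes and 500 UMIs upward, up to a mitochondrial share of 20%. Scrublet scores in scanpy 1.11.5 ranked the barcodes, and the highest 0.8% per 1000 barcodes, 237 to 572 per library, were left out as doublets. The automatic threshold of the caller marked too few barcodes to be used. Cells were scaled to 10000 counts and clustered on 2000 variable genes without the respiratory chain genes (30 components, 15 neighbours, Leiden resolution 1). Clusters were named from marker lists where at least 3 markers had a log2 fold above 1 in at least 10% of cells.

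Counts were summed per mouse and class and divided by the sum to give CPM. Classes with at least 50 cells per mouse were tested across all genes past filterByExpr with edgeR 4.0.16 (R 4.3.3, quasi-likelihood F test, TMM scaling, Benjamini-Hochberg adjustment, threshold 0.05, 2 residual degrees of freedom), with DESeq2 1.42.0 as an alternative. Single values were compared with an exact two-sided permutation test. The named genes were the 13 mitochondrial members, the 2 highest of each complex in the epithelium, the isoform sets, members passing or of smallest p in each class, the 5 with the widest range over classes, and the 2 of smallest p of each other list. The edgeR fit of a single class was checked on counts simulated from the epithelial means, with planted changes larger than most reported here. The DESeq2, interaction and permutation tests were not checked in this way. The NRF1 and YY1 motifs were searched as cores after longer forms had been tried. The members and lists were chosen with earlier results of these data known. CPM is a share of the RNA captured from a class and does not give RNA per cell. One part of the genotype that both groups share is not reported here.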

Additional observations from a re-analysis of the deposited data

How the results depend on the processing

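The log2 ratio of mitochondrial to nuclear UMIs kept its negative sign in the 6 tested classes under the 10 alternatives run in each class and the 15 run in epithelial cells other than ranges of depth, with ranges of -0.46 to -0.28 in epithelial cells, -0.44 to -0.28 in T and NK cells, -0.55 to -0.31 in endothelial cells, -0.72 to -0.30 in fibroblasts, -0.55 to -0.32 in macrophages and monocytes and -0.73 to -0.12 in neutrophils. The neutrophil bounds were those without PSp mouse 1 and without PSp mouse 2. Within ranges of UMIs per cell with at least 50 cells in each mouse, an alternative chosen after seeing the data, the difference reversed in epithelial cells to 0.73 at 1000 to 1999 UMIs and 0.034 at 2000 to 4999 UMIs, and was negative in the other such ranges. With fewer cells it was also positive at 500 to 999 UMIs, with 0.26 in T and NK cells, 0.23 in endothelial cells, 0.13 in fibroblasts and 0.16 in neutrophils. The number of members that edgeR called depended on the filter and the mice. Without the low-count filter it was 7 in T and NK cells, 5 in endothelial cells, 3 in fibroblasts, 6 in macrophages and monocytes and 3 in neutrophils, where 0.966%, 1.01%, 0.773%, 1.12% and 1.12% of all genes were called. DESeq2 called 6 in T and NK cells, 3 in endothelial cells, 3 in epithelial cells, 1 in fibroblasts and 2 in macrophages and monocytes. In the same order, it called 0.813%, 0.0785%, 1.26%, 0.015% and 0.177% of the genes to which it gave an adjusted p. With equal numbers of cells from each sub-cluster, edgeR called 1 in epithelial cells, beside 0.331% of all genes. Leaving out each mouse in turn, which assumes that the lone mouse varies like the other group, gave 3 to 6 in T and NK cells (0.82% to 1.2% of all genes), 0 to 4 in endothelial cells (0.0609% to 1.06%), 0 to 1 in fibroblasts (0.0161% to 0.426%), 0 to 2 in macrophages and monocytes (0.00973% to 0.644%) and 0 to 7 in neutrophils (0.122% to 3.99%), the 7 and the 3.99% without PCSp mouse 1. The T and NK call of mt-Nd2 was lost at a mitochondrial limit of 10% (edgeR adjusted p = 0.0674), and that of mt-Co3 with doublets kept (0.0703). The log2 fold change of Cox7a2l in epithelial cells reversed to -0.028 in basal cells alone, an alternative chosen after seeing the data, as were the other single epithelial subclasses and the deep sub-clusters. The causes of these changes were not tested. No paired analysis was possible because the replicate numbers only name the mice. With 2 mice per genotype the exact test cannot go below 0.333.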
